A study of Mus musculus with 9 samples.

Results

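The glucocorticoid receptor, the enzyme that inactivates its hormone and 6 well-known target genes of the receptor were followed across the genotypes and single mice of a colon expression study. The receptor is Nr3c1, the enzyme is Hsd11b2, and the targets are Tsc22d3, Klf9, Zbtb16, Fkbp5, Sgk1 and Dusp1. They are 8 of the 12393 genes with a name of their own on the array. Every probe set annotated with 1 of the 8 symbols was taken, which gave 20 of the 22626 probe sets that are not controls; 15 of them, at least 1 of each gene, were bright enough to be tested, of 13576 in all. The 8 genes were chosen by their signals and genotype differences on these same arrays, so their differences between genotypes are given as a description and support nothing by themselves. No steroid was given or measured per the labels, and whether the targets followed the hormone in these mice was not tested.

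Gene expression in the proximal colon was measured, from total RNA, in 9 mice of 3 genotypes at Shmt1, which encodes cSHMT, the cytosolic serine hydroxymethyltransferase of folate metabolism. There were 3 cSHMT mutant, 3 heterozygous and 3 wild-type mice, each a biological replicate per the labels with an Affymetrix array of its own, and 3 arrays a genotype set the precision of all values. All 9 mice were C57Bl/6, the cSHMT line having been crossed back to that strain for 10 generations, and were 9 weeks old. All of them, wild-type included, were weaned when 3 weeks old and then fed without folate and choline, for 6 weeks in one label field and 5 weeks in another. The labels do not say how Shmt1 was altered. The design text compares mutant and heterozygous mice each with wild-type mice; mutant against heterozygous is the test of whether those differences differ.

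Glucocorticoids, corticosterone in mice, enter cells and bind the glucocorticoid receptor, which waits in the cytoplasm in a complex with heat shock protein chaperones. The bound receptor moves to the nucleus and binds short palindromic sites in DNA, where it raises the transcription of some genes and lowers that of others, among them genes of inflammation. In the colon the hormone acts on epithelial sodium transport and on immune cells, and blood corticosterone follows a daily rhythm.

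The arrays had median signals between 129.35 and 162.2. Signal from the 3' end of beta-actin relative to its 5' end, which is high where RNA is shortened, was 4.84, 4.45 and 5.02 on the arrays numbered 1 of mutant, heterozygous and wild-type, against 3.05 to 3.75 on those numbered 2 and 2.52 to 2.73 on those numbered 3. Shmt1 followed the labels, with 116.7 ± 3.46, 303.1 ± 31.6 and 594.7 ± 43.2 signal units (SD, n = 3) in mutant, heterozygous and wild-type colons on its probe set 1425177_at. Of the markers of absorptive colonocytes 8 of 8 lay above the brightness limit and of those of goblet cells 5 of 5 on the array, while of 3 small intestine markers on the array Lct and Apoa4 lay under it and Fabp2 above, their summed signal being 5868 to 8748.

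Tsc22d3, on both tested probe sets, and Klf9, on its brightest, had the clearest genotype pattern of the 8 genes. Mean signals there were lowest in mutant colons and highest in heterozygous colons, with wild-type colons between. The other tested Klf9 probe sets followed this order only in part. Fkbp5 and Zbtb16 had their highest means in heterozygous colons, Dusp1 had its lowest mean there, and Sgk1, Nr3c1 and Hsd11b2 differed little, the widest of their log2 fold changes being -0.27, of an Nr3c1 probe set in mutant against heterozygous colons. None of the 15 tested probe sets passed an adjusted p of 0.05 in limma's test in any of the 3 comparisons. The share of all 13576 probe sets that passed was 0.0221% in mutant against wild-type, 0% in heterozygous against wild-type and 0.0221% in mutant against heterozygous. At an unadjusted p under 0.05 there were 3, 4 and 6 of the 15 in these comparisons, beside 3.84%, 8.01% and 7.56% of all probe sets tested. With array weights 1 probe set, of Tsc22d3, passed in heterozygous against wild-type, where 134 of all probe sets did.

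Another count asks for how many probe sets all 3 values of a genotype lie on one side of all 3 values of the other. Mutant values lay below all wild-type values on 4 of the 15 probe sets, 2 of Tsc22d3 and 1 each of Klf9 and Sgk1, and above on 0, where the shares over all probe sets tested were 4.19% and 4.23%. Heterozygous values lay above all wild-type values on 6, against 7.28% of all, and below on 1, Dusp1, against 7.42%. The 6 belong to Klf9 (3), Tsc22d3, Zbtb16 and Nr3c1. Mutant values lay below all heterozygous values on 5, against 6.08% of all, and above on 0, against 6.35%; these 5 are 2 of Tsc22d3, 2 of Klf9 and 1 of Nr3c1. On the values as deposited, without quantile normalization, the counts of 4 and 6 were 2 and 3, beside 2.95% and 6.03% of all. Nothing is read from these shares, because the genes were chosen with the same contrasts in view. The median log2 fold change of the 15 was -0.04, 0.15 and -0.26 in mutant against wild-type, heterozygous against wild-type and mutant against heterozygous. Over all probe sets tested it was 0.0036, -0.0044 and 0.0013. In these comparisons 5, 12 and 3 of the 15 lay above 0, beside 51.0%, 49.0% and 50.4% of all. Several of the 15 belong to the same gene, so these are not counts of genes.

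**Figure D1:**
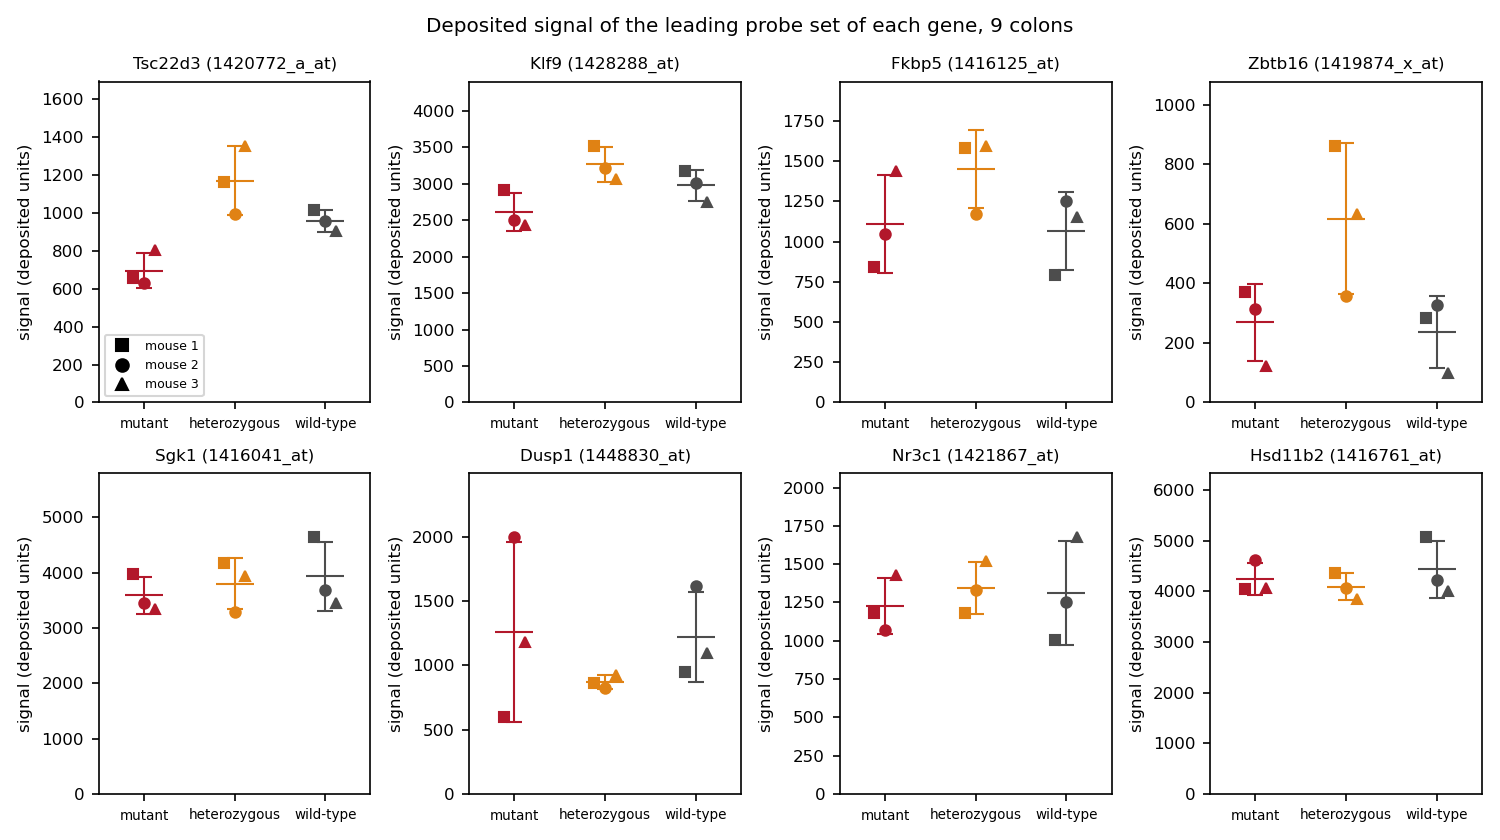
Deposited signal (linear units) of the brightest probe set of each gene in the 3 mutant, 3 heterozygous and 3 wild-type colons; each point is a mouse, the horizontal line is the mean and the bar the SD. The 3 mutant values of Tsc22d3 lie below all other values, and 2 of the 3 heterozygous values of Zbtb16 lie far above the rest.

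The promoters of the targets are shown because the receptor acts through a short DNA site that can be looked for in them. RefSeq windows of GRCm38.p6, 250 bases before to 50 bases after a transcript start, were found for 5 of the 8 genes, 12 windows in all. The letters searched for the receptor were the half-site AGAACA, also as TGTTCT on the other strand, and the full palindrome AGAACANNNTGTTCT, which contains 2 half-sites. Another motif, the D-box TTATGTAA, was searched too. It occurred in 308 of 32851 windows of all genes and in 0 of the 12 windows of the members. A half-site occurred in 19.0% of 32851 windows of all genes, and among the members in 4 of 12, namely 3 of 6 windows of Sgk1 and 1 of 3 of Tsc22d3. The palindrome occurred in 3 of the 32851 windows, 0.00913%, and 1 of the 3 belongs to Sgk1. Below are the 250 bases before the start in 1 window each of Tsc22d3, Klf9 and Sgk1, for Tsc22d3 and Sgk1 the window with the most matches, 5′ to 3′ on the strand of the gene, with half-sites and the palindrome in capitals; a match is a description of the letters and not a measured binding site.
Tsc22d3: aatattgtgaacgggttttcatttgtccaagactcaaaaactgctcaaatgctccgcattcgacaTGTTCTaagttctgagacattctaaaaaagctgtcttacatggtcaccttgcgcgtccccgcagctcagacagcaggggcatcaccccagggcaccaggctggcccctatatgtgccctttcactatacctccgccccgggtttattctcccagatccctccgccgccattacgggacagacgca
Klf9: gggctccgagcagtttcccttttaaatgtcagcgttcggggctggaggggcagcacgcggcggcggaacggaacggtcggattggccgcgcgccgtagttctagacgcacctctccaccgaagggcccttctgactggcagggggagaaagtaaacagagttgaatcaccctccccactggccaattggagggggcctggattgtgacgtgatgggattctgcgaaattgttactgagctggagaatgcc
Sgk1: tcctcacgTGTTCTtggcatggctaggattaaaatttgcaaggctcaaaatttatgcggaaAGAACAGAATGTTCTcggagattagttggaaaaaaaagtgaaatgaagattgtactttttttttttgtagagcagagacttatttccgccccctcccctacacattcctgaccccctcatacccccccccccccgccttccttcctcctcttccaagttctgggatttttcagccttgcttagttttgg
The Tsc22d3 window is chrX:140600523-140600772 on the minus strand, the Klf9 window chr19:23140976-23141225 on the plus strand and the Sgk1 window chr10:21993640-21993889 on the plus strand. In Tsc22d3 the half-site TGTTCT begins 185 bases before the start. In Sgk1 the palindrome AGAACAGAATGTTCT begins 189 bases before the start, and another half-site begins 242 bases before it. The window of Klf9 holds none of these letters, which says nothing about sites elsewhere. Windows of Fkbp5 and Dusp1 held no match either. Zbtb16 and Hsd11b2 are named only.

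Nr3c1, the receptor itself, was read by 3 tested probe sets that did not follow one pattern. The brightest, 1421867_at, read 1179, 1073 and 1429.9 in mutant, 1179, 1334 and 1522 in heterozygous and 1002, 1251 and 1676 in wild-type colons. The 3 genotypes overlapped widely there, and the log2 fold changes were -0.10 in mutant and 0.03 in heterozygous against wild-type (SE 0.17). Probe set 1460303_at read 926, 903 and 1015.5 in mutant, 1104, 1174 and 1167 in heterozygous and 875, 949 and 1095.5 in wild-type colons. Here the heterozygous values lay above all others, by 0.23 over wild-type (SE 0.10, adjusted p = 0.612 in limma's test), while mutant and wild-type overlapped (log2 fold change -0.04). The third and dimmest, 1421866_at, lay between 83.7 and 127.7 in all mice, with log2 fold changes of 0.15 in mutant and 0.12 in heterozygous against wild-type.

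Hsd11b2 encodes the dehydrogenase that turns corticosterone into its inactive form, which in aldosterone-responsive epithelium such as that of the colon keeps the mineralocorticoid receptor free for aldosterone. Its signal was 4058, 4616 and 4062 in mutant, 4372, 4063 and 3850.5 in heterozygous and 5073, 4218 and 4013 in wild-type colons. The genotypes overlapped, and the log2 fold change was -0.01 (SE 0.08; 95% interval -0.19 to 0.17) in mutant and -0.07 (-0.25 to 0.11) in heterozygous against wild-type colons. The intervals leave room for small differences in either direction.

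Tsc22d3, also known as GILZ, encodes a leucine zipper protein that is a classical immediate target of the receptor and holds back inflammatory signalling. Its brightest probe set, 1420772_a_at, read 654, 629 and 803 in mutant, 1165, 992 and 1355 in heterozygous and 1018, 957 and 902.5 in wild-type colons. All mutant values lay below all wild-type values, and heterozygous 2 lay among the wild-type values. Means were 695.4 ± 93.8 in mutant, 1171 ± 182 in heterozygous and 959.2 ± 57.7 in wild-type colons (SD, n = 3), so that mutant colons held 72.5% of the wild-type signal and heterozygous colons 122%. The log2 fold change was -0.46 in mutant against wild-type (SE 0.14, adjusted p = 0.998 in limma's test) and 0.27 in heterozygous against wild-type (adjusted p = 0.656). Mutant against heterozygous gave -0.73, the 18th smallest p of all probe sets tested, with an adjusted p of 0.191. Because the gene was chosen with such differences in view, this rank is only a description.

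The other tested Tsc22d3 probe set, 1425281_a_at, showed the same order of genotypes with no overlap between any of them. It read 224, 198 and 267.5 in mutant, 370.4, 399 and 526 in heterozygous and 273, 287 and 333 in wild-type colons. Its log2 fold changes were -0.35 in mutant and 0.49 in heterozygous against wild-type (SE 0.14 each, adjusted p = 0.998 and 0.536 in limma's test). In mutant against heterozygous it was -0.84 (adjusted p = 0.171, the 9th smallest p, a rank that is again only a description). A further probe set, 1425557_x_at, was too dim to be tested, between 27.3 and 53.8, and its x marks probes that may match other sequences. In whole colon tissue, fewer cells of a type that carries a transcript and less of it per cell cannot be told apart. The summed signal of 4 adipocyte markers, all above the brightness limit, of 6 listed, was 3915, 8589 and 8318 in mutant colons. It was 8053, 10994 and 8429 in heterozygous and 12033, 9839 and 8649 in wild-type colons. Mutant 1 was by far the lowest. Mutant 2, which had the lowest Tsc22d3 of all mice, read above heterozygous 1 and 3. Summed signals of 6 smooth muscle markers were 22285 to 27001 in mutant, 20275 to 22542 in heterozygous and 24927 to 25781 in wild-type colons. Those of 6 fibroblast markers were 10008.5 to 10970 in mutant, 8923 to 11029 in heterozygous and 11368 to 12021 in wild-type colons. The sums of the other cell types looked at overlapped between genotypes. The part of fat cells, smooth muscle and fibroblasts in the Tsc22d3 values was not tested.

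Klf9 encodes a Krüppel-like zinc finger transcription factor that the receptor induces and that also varies over the day in many tissues. On its brightest probe set, 1428288_at, the signal was 2918, 2504 and 2432 in mutant, 3524, 3211 and 3065 in heterozygous and 3172, 3017 and 2755 in wild-type colons. After normalization the log2 values were 11.43, 11.31 and 11.32 in mutant, 11.70, 11.71 and 11.67 in heterozygous and 11.51, 11.61 and 11.50 in wild-type colons. The 3 genotypes did not overlap on that scale, whereas on the deposited values both mutant and heterozygous overlapped wild-type. The differences were small but the spread within genotypes was smaller, at 0.05 on the log2 scale, below that of all but 2.43% of the probe sets tested. The log2 fold change was -0.19 in mutant (SE 0.06, adjusted p = 0.998 in limma's test) and 0.15 in heterozygous against wild-type (adjusted p = 0.601), and -0.34 in mutant against heterozygous (adjusted p = 0.186).

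Klf9 had 4 other tested probe sets, and they followed this order only in part. One of them, 1422264_s_at, has by its suffix probes shared with other transcripts. In mutant against heterozygous all 4 were lower in mutant colons, from -0.26 to -0.10 on the log2 scale, and 1456341_a_at did so without overlap, with 962, 985 and 838 in mutant and 1056, 1122 and 1168 in heterozygous colons. In heterozygous against wild-type all 4 were higher, from 0.08 to 0.28. In mutant against wild-type 2 were lower (-0.16 and -0.02) and 2 higher (0.02 and 0.05). None of these values passed. The dim probe sets 1452723_at and 1436952_at of Klf9, which read at most 20.7, were not tested.

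Zbtb16, or PLZF, encodes a zinc finger repressor that responds strongly to glucocorticoids in many cells. Its tested probe set, 1419874_x_at, read 371, 313.5 and 124 in mutant, 862, 356.5 and 632 in heterozygous and 282, 326 and 97.6 in wild-type colons. Heterozygous values lay above all wild-type values, but heterozygous 2 lay below mutant 1, and mutant 3 and wild-type 3 were far below the other mice of their genotypes. The x in its name marks probes that may match other sequences. The log2 fold change in heterozygous against wild-type was 1.38, the widest difference of the 15, with a wide interval too (0.25 to 2.51; SE 0.51, adjusted p = 0.584 in limma's test). When noisier arrays were given less weight (array weights) it was 0.78. In mutant against wild-type it was 0.21 (-0.92 to 1.34). The other Zbtb16 probe set was dim, between 7 and 18.5, and does not check these values.

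Fkbp5 encodes a co-chaperone of the receptor complex that lowers its affinity for hormone, and is itself induced by the receptor. Its probe set 1416125_at read 841, 1046 and 1442.5 in mutant, 1581, 1169.9 and 1597 in heterozygous and 791, 1251.5 and 1155.5 in wild-type colons. Heterozygous 1 and 3 were the highest of all mice, and heterozygous 2 lay among the wild-type values. The log2 fold change was 0.42 in heterozygous (SE 0.20, adjusted p = 0.633 in limma's test) and 0.05 in mutant against wild-type colons. Wild-type 1 and mutant 1 were the lowest values, both on arrays with a high 3' to 5' actin ratio, but heterozygous 1, on the remaining such array, was the second highest of all, and without the 3 arrays numbered 1 the heterozygous difference was 0.19. A dim Fkbp5 probe set, 1448231_at, lay just under the brightness limit, with a mean log2 signal of 6.47 where the limit was 6.51. It read 43.9, 73.9 and 102.5 in mutant, 97.4, 88.4 and 99.2 in heterozygous and 33.3, 70.1 and 76.2 in wild-type colons, and the heterozygous values lay above all wild-type values, which on 1416125_at they did not.

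Sgk1 encodes a kinase that keeps the epithelial sodium channel at the cell surface and is induced by glucocorticoids and by aldosterone. It read 3967, 3452 and 3337 in mutant, 4176, 3291 and 3931.5 in heterozygous and 4638, 3688 and 3458 in wild-type colons. After normalization the mutant values lay below all wild-type values by a small margin, which was not so on the deposited values. The log2 fold changes were -0.10 in mutant (95% interval -0.27 to 0.07) and -0.01 in heterozygous (-0.18 to 0.16) against wild-type colons. Sgk1 is the gene whose promoter window holds the palindrome shown above.

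Dusp1 encodes a phosphatase that switches off MAP kinases and is induced both by glucocorticoids and by stress and growth signals. Its signal was 599.8, 1997 and 1185 in mutant, 862, 822.5 and 927.5 in heterozygous and 947, 1617.5 and 1093 in wild-type colons. The heterozygous values lay below all wild-type values and close to each other, while the mutant mice held both the lowest and the highest value of all 9. The log2 fold change was -0.47 in heterozygous (SE 0.32, adjusted p = 0.719 in limma's test) and -0.08 in mutant against wild-type colons (95% interval -0.78 to 0.62). Fos, an immediate early gene, was low in heterozygous colons, at 1154, 1009 and 2326 against 3527, 2442 and 2363 in wild-type colons (log2 fold change -0.92, adjusted p = 0.497 in limma's test). In mutant colons it read 2186, 2502 and 1937. Of the 14 tested immediate early genes 7 lay below 0 and 7 above in heterozygous against wild-type, so Fos does not stand for the list.

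**Figure D2:**
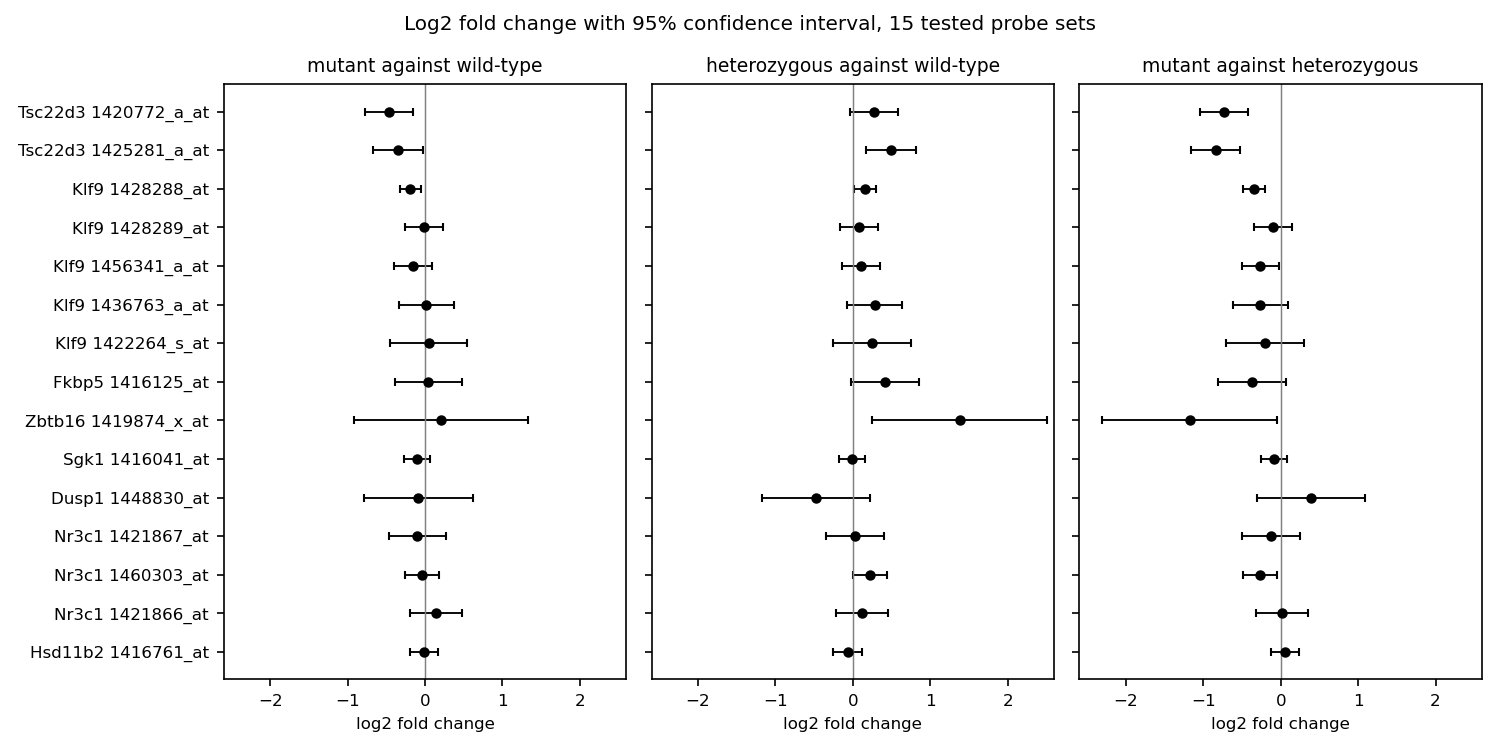
Log2 fold change (points) and 95% confidence interval (bars) of the 15 tested probe sets in mutant against wild-type, heterozygous against wild-type and mutant against heterozygous colons, from limma's fit of all 9 arrays. Both Tsc22d3 probe sets lie left of 0 in mutant and right of 0 in heterozygous against wild-type colons, and the intervals of Zbtb16 and Dusp1 are the widest.

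The targets differed in how much single mice of 1 genotype varied. The SD within genotypes was 0.84 on the log2 scale for Zbtb16 and 0.51 for Dusp1, larger than for 99.6% and 98.4% of the probe sets tested, whose median was 0.17. Fkbp5 had 0.30, and the brightest probe sets of Tsc22d3, Hsd11b2 and Sgk1 had 0.18, 0.12 and 0.10; the dim Klf9 probe set 1422264_s_at had 0.32. No mouse was far from the mean of all mice in the same direction on all targets (brightest probe sets, log2 scale). Heterozygous 3 had the highest Tsc22d3 and Fkbp5, heterozygous 1 the highest Zbtb16 and mutant 2 the lowest Tsc22d3 and the highest Dusp1. Heterozygous 3 lay above that mean on Tsc22d3 (0.55), Klf9 (0.14), Fkbp5 (0.43), Sgk1 (0.18) and Zbtb16 (0.93), but not Dusp1 (-0.24). Heterozygous 1 did so too, with Sgk1 at 0.03 and Dusp1 at -0.24. Mutant 2 lay below it on all but Dusp1 (0.89), with Zbtb16 at -0.004. Wild-type 2 lay above it on all, from 0.008 on Zbtb16 to 0.08 on Klf9 and 0.61 on Dusp1.

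**Figure D3:**
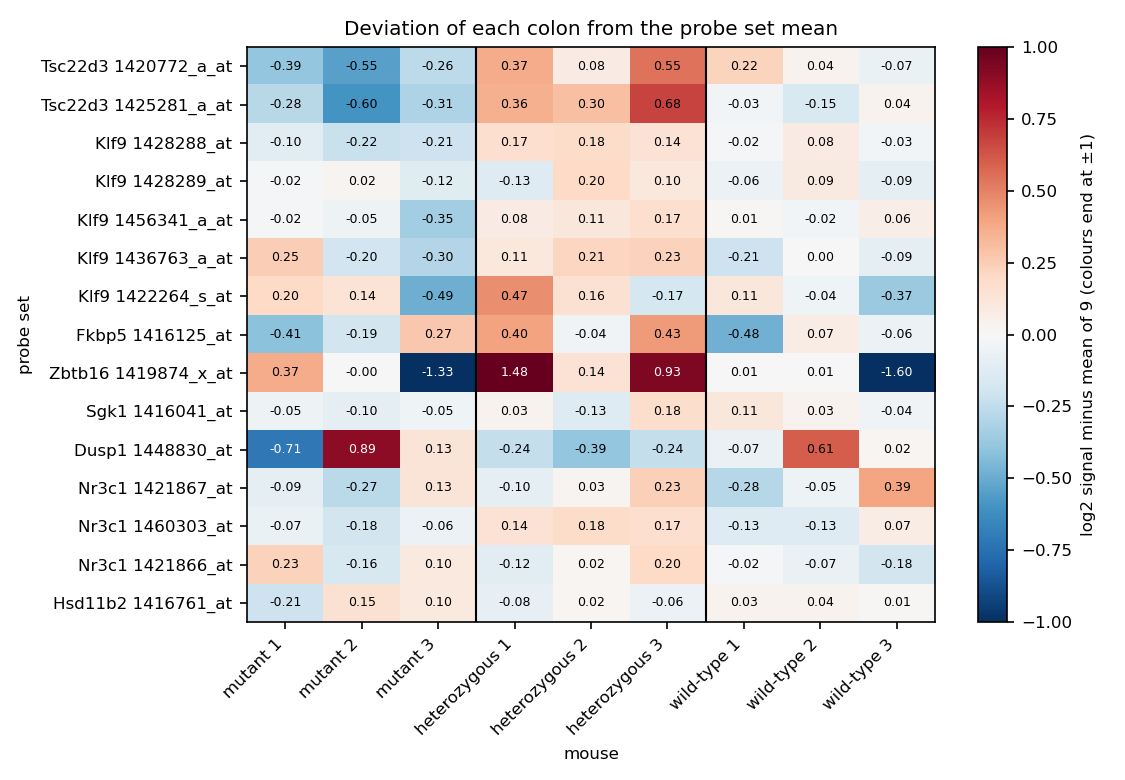
Log2 signal of each of the 15 tested probe sets in each of the 9 colons minus the mean of the 9 (colours and numbers; mutant, heterozygous and wild-type mice from left to right). The rows of Tsc22d3 run from -0.60 in mutant 2 to 0.68 in heterozygous 3, and that of Zbtb16 lies at -1.33 in mutant 3 and -1.60 in wild-type 3.

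Correlations over the 9 mice were computed for all 28 pairs of the 8 brightest probe sets. None passed an adjusted p of 0.05 (exact permutation tests, two-sided, Benjamini-Hochberg over the 28 pairs). Mice were permuted freely across genotypes, so these p-values also take in the genotype differences that the choice of genes had used. Correlations within genotypes were not tested. By Pearson's r the closest pair was Tsc22d3 and Klf9, and by Spearman's rho it was Hsd11b2 and Dusp1. Tsc22d3 and Klf9 had r = 0.84 (exact permutation p = 0.00589, adjusted 0.103) and rho = 0.83 (exact permutation p = 0.00827, adjusted 0.116). Without mutant 2 and heterozygous 3, the mice farthest from the median of Tsc22d3, r was 0.76. Within genotypes, on deviations from the genotype means, it was -0.12, so the pair went together between genotypes, which the choice of genes had used, and not between mice of 1 genotype.

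Tsc22d3 and Sgk1 went together within genotypes as well. Their r was 0.75 (exact permutation p = 0.0209, adjusted 0.195) and rho 0.73 (exact permutation p = 0.0311, adjusted 0.29), with r at 0.50 without mutant 2 and heterozygous 3. Within genotypes r was 0.94, which was not tested. Hsd11b2 and Dusp1 had r = 0.82 (exact permutation p = 0.00735, adjusted 0.103) and rho = 0.85 (exact permutation p = 0.00607, adjusted 0.116), which was 0.51 without mutants 1 and 2 and 0.80 within genotypes. Heterozygous mice went the other way, heterozygous 2 having the highest Hsd11b2 (12.08 on the log2 scale, against 11.98 and 12.01) and the lowest Dusp1 (9.68, against 9.83 in both others). Over all 28 pairs the median r was 0.13 and 17 were positive, beside a median of 0.0045 over all pairs of the 8202 genes. Within genotypes the median was -0.08 and 11 were positive.

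**Figure D4:**
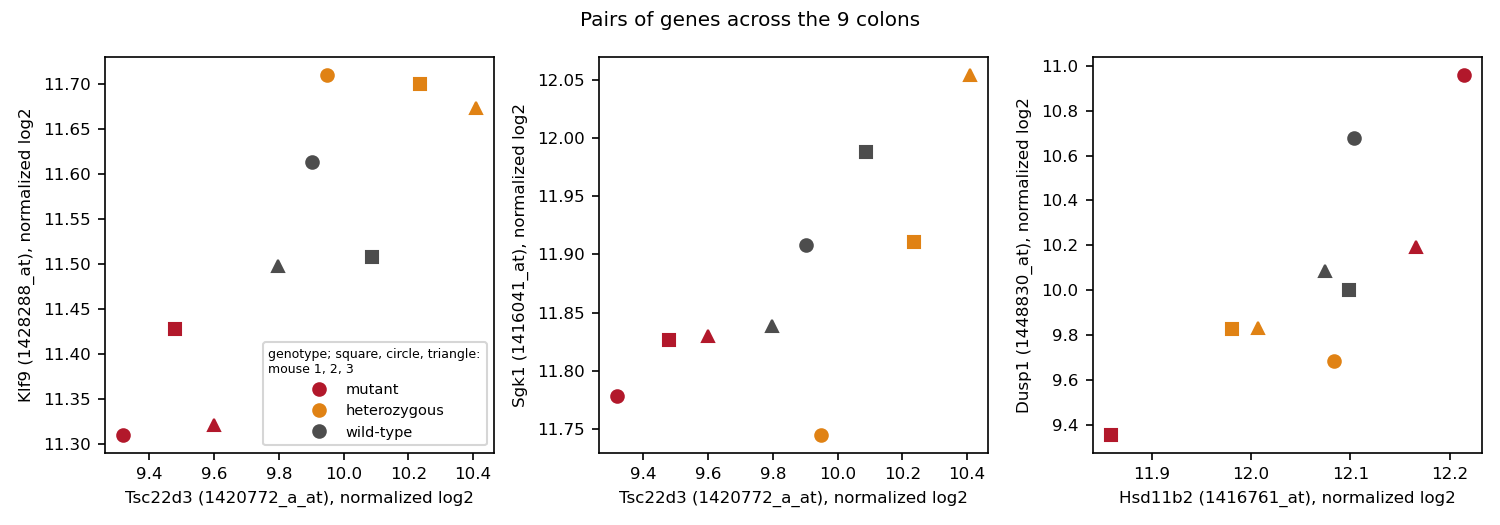
Normalized log2 signal of 3 pairs of genes in the 9 colons; each point is a mouse, colours are mutant, heterozygous and wild-type, and shapes the number of the mouse within its genotype. For Tsc22d3 and Klf9 the 3 genotypes form 3 separate groups of points, while in the panel of Hsd11b2 and Dusp1 mutants 1 and 2 lie at opposite ends.

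The genes most like each member were taken as the 3 with the highest Pearson correlation over the 9 mice among 8201 others, a description of these arrays. For Klf9 they were Tef (0.944), Fmo2 (0.936) and Hlf (0.928), and Tef and Hlf had log2 fold changes of -0.45 and -0.40 in mutant and 0.28 and 0.46 in heterozygous against wild-type colons. For Tsc22d3 they were Ptbp3 (0.946), Chic2 (0.899) and D10Wsu102e (0.898), with differences from wild-type between -0.11 and 0.20. The nearest gene was Usp7 for Nr3c1 (0.98), Fh1 for Hsd11b2 (0.955), Dgcr2 for Fkbp5 (0.957), Cited2 for Zbtb16 (0.934), Srpr for Dusp1 (0.93) and Rarg for Sgk1 (0.875). No member was among the 3 genes most like another member. These names depend on the measure: of the 24, 4 stayed with deviations from genotype means and 6 with Spearman's correlation.

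Around the 8 genes, other lists of the pathway were described, and no gene of them passed in any comparison. Of 22 other genes known to be induced by glucocorticoids 20 were tested. Of these, 19 lay below 0 and 1 above in mutant against wild-type (median log2 fold change -0.12, beside 0.0036 over all probe sets tested). In heterozygous against wild-type 10 lay below and 10 above (median 0.01), and in mutant against heterozygous 15 below and 5 above (median -0.16). Of all probe sets tested 51.0%, 49.0% and 50.4% lay above 0 in these comparisons. Some of the 19 were near 0, such as Nfkbia at -0.0077 and Glul at -0.012. This list and those below were chosen with earlier results of these data known, so their counts are a description and support nothing by themselves. Per1, a clock gene with receptor sites, read 100.5, 110.4 and 159.5 in mutant, 179.8, 253.5 and 210.2 in heterozygous and 143.8, 140.9 and 198.5 in wild-type colons. Its order of genotypes was that of Tsc22d3, with log2 fold changes of -0.34 in mutant and 0.36 in heterozygous against wild-type (adjusted p = 0.998 and 0.621) and -0.70 in mutant against heterozygous (adjusted p = 0.348).

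By sign alone, 10 of the 20 lay below wild-type in mutant and above it in heterozygous colons. With 19 of the 20 below 0 in mutant colons, the 10 above 0 in heterozygous colons nearly fix this count. Nothing is read from it. Per1, Ddit4 and Lcn2 were among these 10, and so was Nfkbia, near 0 at -0.0077 in mutant and 0.024 in heterozygous against wild-type. Ddit4, an inhibitor of mTOR signalling, was at -0.32 in mutant and 0.09 in heterozygous against wild-type, and at -0.41 in mutant against heterozygous. Errfi1, which restrains EGF receptors, was below wild-type in both, at -0.24 in mutant and -0.17 in heterozygous colons. Anxa1, the anti-inflammatory annexin, was at -0.31 in heterozygous against wild-type without overlap, and Zfp36, which destabilizes cytokine messages, at -0.29. Lcn2, an antimicrobial lipocalin, read 109.9, 80.7 and 53.9 in mutant and 197.6, 136.6 and 148.5 in heterozygous colons (-0.83), with 144.8, 90.5 and 49.8 in wild-type colons.

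Among the receptor's partners, 9 of 12 tested chaperone genes lay below 0 in mutant and 9 of 12 in heterozygous against wild-type (medians -0.09 and -0.11). Dnaja1, of the HSP40 family, was at -0.44 in mutant, and Stip1, which links HSP70 and HSP90, at -0.38 in heterozygous against wild-type. Of 7 tested cofactors 4 and 2 lay below 0 in these comparisons (medians -0.02 and 0.06), and Ncoa1, a coactivator of the receptor, was at 0.33 in heterozygous colons without overlap with wild-type (adjusted p = 0.576). Of 11 genes of local steroid synthesis and metabolism 9 were on the array, Cyp11b1 and Srd5a1 not among them. Only 4 of the 9 were bright enough, without the synthetic enzymes Cyp11a1, Cyp21a1 and Hsd3b1. All 4 lay below 0 in mutant against wild-type and 3 of 4 above 0 in heterozygous against wild-type. Hsd11b1, which regenerates active hormone, read 315, 607 and 307 in mutant, 661.5, 527 and 589.7 in heterozygous and 614, 481.5 and 345 in wild-type colons, a difference of -0.57 in mutant against heterozygous with overlap (adjusted p = 0.676).

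Scnn1a and Scnn1b, subunits of the sodium channel that corticosteroids regulate in the colon, lay on the other side of 0 from Tsc22d3 in mutant against wild-type; Scnn1g was too dim to be tested. Scnn1a read 309, 327 and 230.2 in mutant, 230.2, 179.9 and 192 in heterozygous and 166, 216 and 216 in wild-type colons. Mutant values lay above all wild-type values (log2 fold change 0.48, adjusted p = 0.998), and Scnn1b had a log2 fold change of 0.36 with overlap. Of the 10 tested ion transport genes 7 lay above 0 in mutant and 3 in heterozygous against wild-type (medians 0.04 and -0.07). Of the 14 tested immediate early genes 11 and 7 lay below 0 in these comparisons (medians -0.07 and -0.02).

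Of 12 inflammatory genes that glucocorticoids are known to repress, 4 were bright enough to be tested, of which 3 lay below 0 in mutant and 4 in heterozygous against wild-type. Ccl5, a chemokine of T cells, read 1158, 421 and 316.5 in mutant, 296, 1310.4 and 1015 in heterozygous and 1746, 1245 and 1038 in wild-type colons, with log2 fold changes of -1.26 and -0.78 against wild-type and overlap in both. The summed signal of 5 T cell markers on the array, of which Cd3g and Cd2 lay under the brightness limit, was 704.9 to 2067 in mutant, 713 to 1767 in heterozygous and 1020.3 to 2408.5 in wild-type colons, and its part in the Ccl5 values was not tested. Vcam1, an adhesion molecule, was at -0.32 in mutant against wild-type. Of 13 tested relatives of the 8 genes, 8 lay below 0 in mutant and 6 in heterozygous against wild-type (medians -0.06 and 0.02). Among them Dusp6, another MAP kinase phosphatase, was at -0.22 in mutant colons without overlap, and Tsc22d4, of the TSC22 family, at 0.21.

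**Figure D5:**
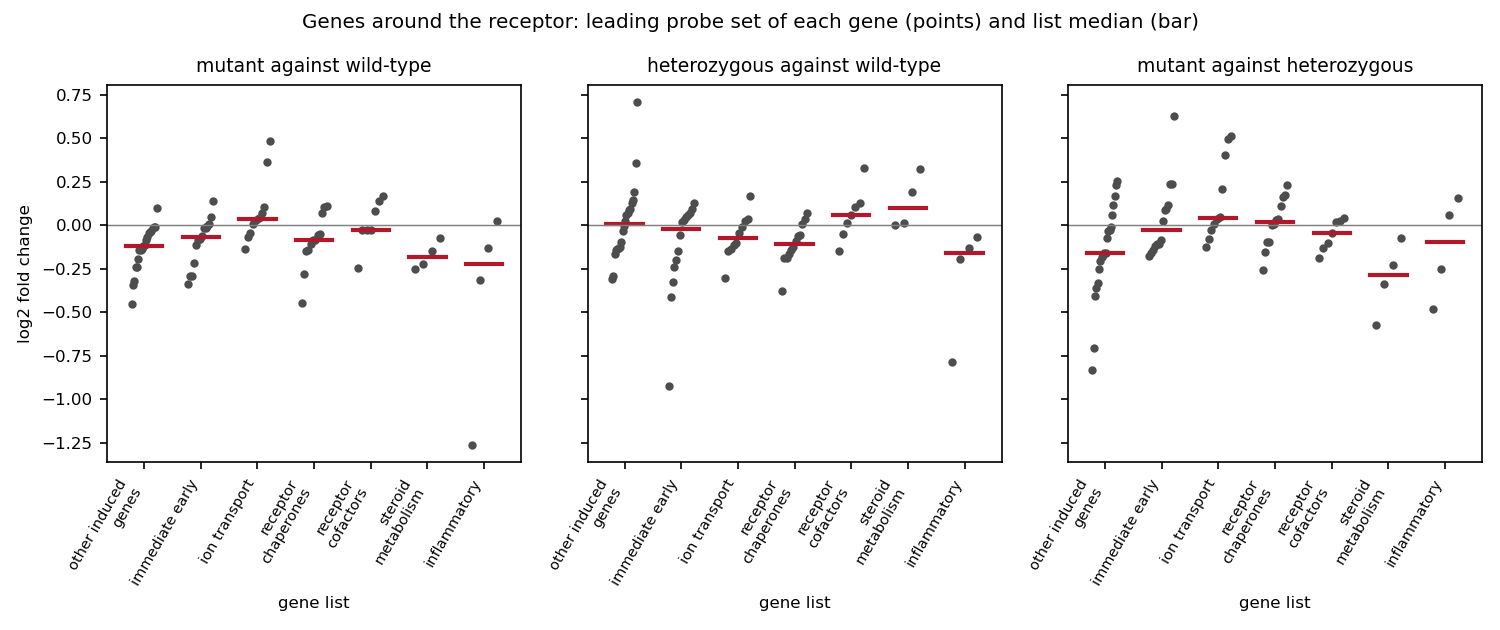
Log2 fold change of the brightest probe set of each gene (points) and the median (red bar) of 7 gene lists around the receptor, in mutant against wild-type, heterozygous against wild-type and mutant against heterozygous colons. Of the other induced genes 19 of 20 lie below 0 in mutant against wild-type colons, and 10 of 20 in heterozygous against wild-type colons. The lists were chosen with earlier results of these data known.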

How the data were processed

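Intensities were deposited by the authors, 1 linear signal per probe set and array; GCOS, Affymetrix software, appears in the submitters' processing notes, and its scaling is not given in the sources used here. About 50 ng of RNA per colon was amplified, per the labels' protocols. Signals in the text are the deposited values. For tests, 16 was added, log2 taken and the arrays quantile normalized, which shrinks fold changes of dim probe sets. The 64 control probe sets and those with a mean under the 40th percentile (signal 75.5) were left out; the highest Bacillus control signal was 10.9. Limma 3.58.1 (lmFit, eBayes with a trend; R 4.3.3) fitted all 9 arrays without covariates, with Benjamini-Hochberg adjustment over 13576 probe sets. Each gene's brightest probe set (highest mean log2 signal over the 9 arrays) stands for it in lists and correlations. Gene names are the platform annotation's: 20380 probe sets carry 1 symbol, 691 several and 1555 none. The 8 genes and all lists, 121 genes, were chosen with earlier results of these data known. Named list genes with values are the 3 with the smallest p per list and comparison. Of these the text gives a selection, Fos standing beside Dusp1. Nfkbia and Glul, outside this rule, are named as examples near 0. Promoter windows are RefSeq's of GRCm38.p6; Nr3c1's is not shown. Replicate numbers were not used as pairs, since not every same-number correlation of deviations was over 0.1 (-0.06 to 0.46), although the actin ratio differed by number. The test was tried on simulated data, but the outcome is not given here and nothing is drawn from it. Figures were drawn with matplotlib 3.10.9 in Python 3.11.15.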

Additional observations from a re-analysis of the deposited data

Results flagged for a closer look

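Tsc22d3, and Klf9 on its brightest probe set but not on all others, lay on opposite sides of wild-type in mutant and heterozygous mice. On Tsc22d3 probe set 1425281_a_at all 3 mutant values lay below and all 3 heterozygous values above every wild-type value, and the difference of mutant minus heterozygous was -0.840 on the log2 scale (adjusted p = 0.171 in limma's test). On Klf9 probe set 1428288_at the same held after normalization, with a difference of -0.342 (adjusted p = 0.186 in limma's test). On the deposited values both mutant and heterozygous overlapped wild-type there. Neither passed, and both genes had been chosen with such values known.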

How the results depend on the processing

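No member probe set was called in any comparison in any of the fits tried, except 1 of Tsc22d3 in heterozygous against wild-type with array weights, where 134 of all probe sets were called. Over all probe sets, mutant against wild-type gave 9 calls with array weights, 9 without the 3 arrays numbered 1, 5 with the replicate block and 2 to 4 when single arrays were left out. Heterozygous against wild-type gave 0 to 3 when single arrays were left out, 3 without heterozygous 3. Mutant against heterozygous gave 5 with only those genotypes fitted, 8 with the replicate block and 1 to 7 when single arrays were left out: 1 without heterozygous 1 or mutant 2, 5 without wild-type 1, 6 without wild-type 3 and 7 without heterozygous 3. By the criterion used the replicate numbers did not pair the mice, though 6 of 9 arrays correlated best with one of their own number, a hint from the data and not the design; the block left the members uncalled. Of 981 member fold changes under the alternatives 975 stayed within the spread between mice and 43 changed sign, none of them a call. Both tested Tsc22d3 probe sets and the brightest of Klf9 kept their signs in all 22 settings and comparisons. That Klf9 probe set, whose spread is small, was among the 6 values that moved beyond it, in 1 setting of each comparison. In heterozygous against wild-type it ranged from 0.095 to 0.19. For counts of members without overlap, 2 settings were chosen after seeing the data. The counts were 2 (lower, mutant against wild-type) and 3 (higher, heterozygous against wild-type) on the values as deposited, beside 2.95% and 6.03% of all probe sets. Without the arrays numbered 1 they were 1 higher and 6 lower in mutant against wild-type (15.8% and 15.9% of all), 9 higher and 1 lower in heterozygous against wild-type (17.2% and 19.4%), 2 higher and 8 lower in mutant against heterozygous (21.0% and 19.7%), with only 2 mice against 2. With 3 mice per genotype, intervals of the members span from 0.28 (Klf9) to 2.26 (Zbtb16) on the log2 scale.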
